A study of Mus musculus with 12 samples.

Results

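The genes described here encode the proteins of the mitochondrial ribosome. They were taken as the protein-coding genes of GENCODE release M21 whose symbol is Mrpl or Mrps followed by a number, which gave 78 of the 35975 genes in the files, 49 with an Mrpl symbol and 29 with an Mrps symbol. No measured value chose them. By the current names of ribosomal proteins 51 belong to the large subunit, since Mrps18a and Mrps30 sit there despite their symbols, and 26 to the small subunit. Mrps36 is now assigned to the oxoglutarate dehydrogenase complex and was kept because the symbol rule names it. All 78 passed the filter on low counts, and 77 had at least 10 counts in every library.

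The 12 libraries are from mouse PGCLCs, primordial germ cell-like cells, which are made in a dish and resemble the founders of the germ line. All were derived from E14TG2a embryonic stem cells kept in 2i medium with vitamin C, primed towards epiblast-like cells, then induced for 4 days as aggregates with BMP4, BMP8, SCF, EGF and LIF. WT_40h was wild type primed for 40 h. TKO_40h, TKO_48h and TKO_96h carried knockouts of Dnmt1, Dnmt3a and Dnmt3b, the DNA methyltransferases, and were primed for 40, 48 and 96 h. Each group had 3 biological replicates. The labels name no separate knockout clones and do not say whether cells were sorted before RNA extraction, and wild type was sequenced at 1 priming time. In such bulk cultures fewer cells of a type and less RNA per cell cannot be told apart.

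Mitochondria carry their own ribosome, which translates the few proteins still encoded by mitochondrial DNA, all of them parts of the oxidative phosphorylation machinery. Its RNAs are made inside the organelle, while every one of its proteins is encoded in the nucleus, made in the cytosol and imported, so that both genomes have to be expressed for the particle to form. The large subunit joins amino acids and lets the chain out through an exit tunnel next to the inner membrane. The small subunit holds the mRNA, and a flexible stalk on the large subunit recruits the translation factors. Some of the proteins have bacterial counterparts and others are found only in mitochondria.

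In counts scaled to library size, mitochondrial ribosomal protein genes summed to nearby levels in WT_40h, TKO_40h and TKO_48h. They were higher in TKO_96h, where these sums were above every other library in both subunits. Scaled to transcript length as well, the sum over all members was lower in TKO_48h than in TKO_40h, without overlap. On that scale cytosolic ribosomal protein genes were also lower in TKO_48h than in TKO_40h, without overlap. A fit with an offset for effective length gave the 78 genes a median log2 fold change of -0.005 in TKO_48h against TKO_40h. In that fit 38 of them were above 0 and 0 were called lower. In sums scaled to transcript length the small subunit of TKO_96h overlapped that of TKO_40h. The calls of 3 large-subunit genes, Mrpl11, Mrpl12 and Mrpl37, against TKO_40h and TKO_48h held under all alternatives tried. Short stretches of DNA ahead of these 3 genes are shown for that reason. They are the longest runs of the RefSeq promoter windows (GRCm38.p6) that lie outside every GENCODE exon, given along the gene's own strand, with CpG dinucleotides, the sites that the deleted enzymes methylate, in capitals.
Mrpl11, chr19:4962056-4962146, plus strand: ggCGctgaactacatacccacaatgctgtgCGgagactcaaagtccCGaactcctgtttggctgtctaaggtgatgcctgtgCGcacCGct
Mrpl12, chr11:120484387-120484612, plus strand: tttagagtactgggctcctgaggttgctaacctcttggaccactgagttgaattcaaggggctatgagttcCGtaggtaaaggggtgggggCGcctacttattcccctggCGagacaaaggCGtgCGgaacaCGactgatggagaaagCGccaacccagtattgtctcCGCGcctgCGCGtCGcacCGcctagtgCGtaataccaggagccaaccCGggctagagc
Mrpl37, chr4:107066869-107066987, minus strand: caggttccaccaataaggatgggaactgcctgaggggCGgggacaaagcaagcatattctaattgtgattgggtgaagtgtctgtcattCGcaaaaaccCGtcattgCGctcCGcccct

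The Mrpl12 stretch holds 15 CpGs in 226 bases, against 5 in 91 bases for Mrpl11 and 5 in 119 bases for Mrpl37. Over whole windows of 300 bases, 250 before and 50 after each RefSeq start, 69 of the 78 genes were matched, with 75 windows. They held a median of 21 CpGs, from 5 to 43, where the windows of protein-coding genes held a median of 14 and those of all genes 7. DNA methylation was not among the measurements.

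The same windows were searched on both strands for 3 motifs often named for genes of mitochondrial proteins. CCGGAAG, bound by ETS factors such as GABPA, was in 34.7% of the 75 windows and in 8.86% of all 32851 windows. AAGATGGC, bound by YY1, was in 16.0% and 2.75%, and CGCATGCG, bound by NRF1, in 9.33% and 1.87%. At least 1 of the 3 was in 50.7% of the windows of these genes and 12.6% of all windows. CACGTG, the E-box that Myc and other factors bind, was in 9.33% and 7.15%. All windows include those of genes that are not protein coding, and they held fewer CpGs, as given above. The ETS, NRF1 and E-box strings themselves contain CpGs. The shares were not compared with protein-coding windows alone or with windows of like CpG content. These are matches of letters and were not measured as bound sites. The sites below, each 30 bases along the gene's strand with the motif in capitals, belong to genes whose values are given further on.
Mrpl37, YY1, chr4:107066822-107066851: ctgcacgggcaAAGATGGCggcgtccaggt
Mrpl42, YY1, chr10:95501904-95501933: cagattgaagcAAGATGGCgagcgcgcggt
Mrps24, YY1, chr11:5707652-5707681: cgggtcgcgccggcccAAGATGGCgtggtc
Mrpl22, ETS, chr11:58171600-58171629: cttttccggtcCCGGAAGccggcctcggac
Mrpl22, NRF1, chr11:58171621-58171650: gcctcggactgCGCATGCGtatagtcagcc
Mrpl18, ETS, chr17:12916312-12916341: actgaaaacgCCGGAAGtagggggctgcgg
Mrpl39, NRF1, chr16:84735350-84735379: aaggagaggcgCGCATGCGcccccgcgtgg

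The 3 YY1 matches began 26, 27 and 36 bases past the start in Mrpl37, Mrpl42 and Mrps24. None of the 3 letter strings was in the windows of Mrpl11 and Mrpl12. Of the 31 genes called in any comparison below, 29 had a window and 12 of these held at least 1 of the ETS, NRF1 and YY1 strings, beside 26 of the 40 matched genes that were never called. The genes are spread over 17 chromosomes and none is on the X chromosome. For 18 of them (23.1%) the GENCODE start lay within 1000 bases of the start of an opposite-strand protein-coding gene pointing away, a layout found in 6.72% of protein-coding genes. The pairs include Mrpl37 with Cyb5rl, 120 bases apart, Mrpl49 with Fau, the gene of a cytosolic ribosomal protein precursor, 59 bases apart, and Mrps12 with Sars2, the mitochondrial seryl-tRNA synthetase, 172 bases apart.

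Depth was 6570180 to 9114128 estimated counts per library. Counts of Dnmt1, Dnmt3a and Dnmt3b were lower in each of the 9 knockout libraries than in any wild-type library, with mean levels of 120, 64.3 and 47.9 CPM (counts scaled to effective library size) in TKO_40h and 439, 406 and 185 in WT_40h. The germ cell markers Prdm1, Tfap2c and Dppa3 were detected in all 12 libraries, and Nanos3 ran between 0.528 and 4.68 CPM. Replicate 1 of TKO_96h stood apart. Lars2 and Ccnb1ip1, whose counts may include ribosomal RNA reads, which was not checked, took 3.057% of its counts and 1.304 to 1.932% elsewhere. Genes annotated as ribosomal RNA took 1.243% of its counts, against 1.288 and 1.632% in the other TKO_96h libraries. The summed level of cytosolic ribosomal protein genes was 57100 CPM, against 37900 and 38100 in the other TKO_96h libraries. Replicate 1 of TKO_48h was farthest from its group in a principal component analysis. Counts of calls in TKO_96h, and the called genes that results turn on, are therefore given with and without its replicate 1.

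Mitochondrial ribosomal protein genes together held 0.276 to 0.304% of the counts of matched genes in the WT_40h, TKO_40h and TKO_48h libraries. In TKO_96h they held 0.431, 0.372 and 0.358%. Scaled to effective library size, the summed level was 2890, 2720 and 2830 CPM in WT_40h and 2980, 3000 and 2950 CPM in TKO_40h. It was 3290, 2620 and 3020 CPM in TKO_48h and 4500, 3670 and 3570 CPM in TKO_96h. All 3 libraries of TKO_96h were thus above all 9 others, with replicate 1 the highest. The deposited TPM are scaled to transcript length within each library. Their sum was 2010, 1760 and 1930 in WT_40h and 2170, 2110 and 2210 in TKO_40h. It was 1630, 1780 and 1710 in TKO_48h and 3110, 2930 and 2340 in TKO_96h. On that scale too the TKO_96h libraries were above those of the other groups. TKO_40h was above WT_40h in both TPM and CPM sums, while as shares of counts replicate 1 of both groups held 0.294%. TKO_48h was below TKO_40h in TPM, where the CPM sums overlapped. Cytosolic ribosomal protein genes also summed to less TPM in TKO_48h, at 44000, 44600 and 45400, than in TKO_40h, at 56600, 50100 and 55300. With an offset for effective length in the test, the members had a median log2 fold change of -0.005 in this comparison. Large-subunit genes summed to 1440, 1420 and 1490 TPM in TKO_40h, 1080, 1170 and 1150 TPM in TKO_48h and 2220, 1960 and 1640 TPM in TKO_96h, without overlap. Small-subunit genes summed to 714, 667 and 704 TPM in TKO_40h, 527, 591 and 547 TPM in TKO_48h and 862, 942 and 682 TPM in TKO_96h. In the small subunit TKO_96h replicate 3 thus lay below 2 of the TKO_40h libraries on the TPM scale, though above all of them in CPM.

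**Figure D1:**
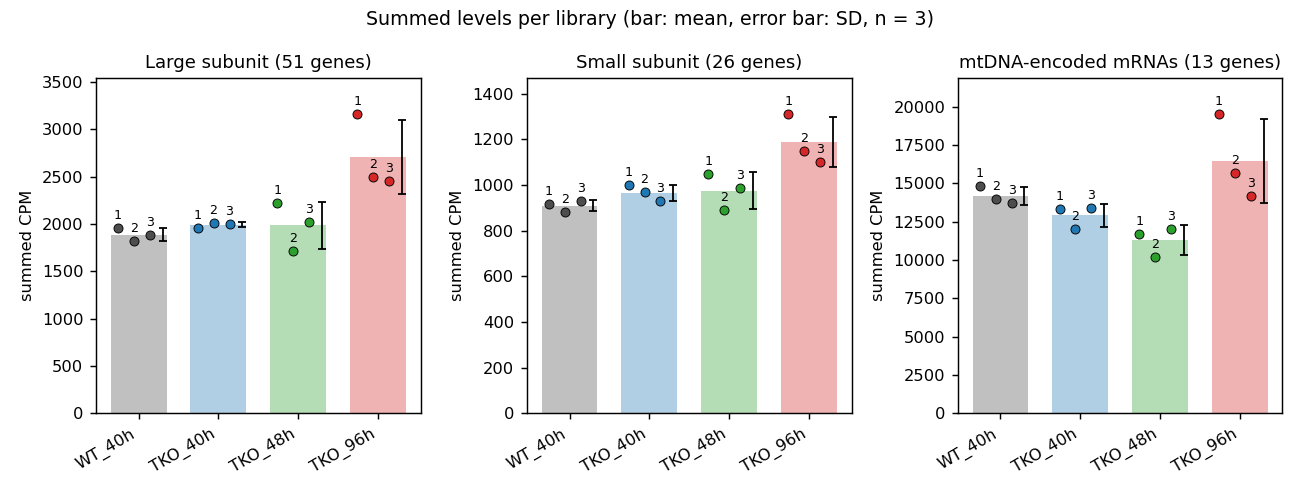
Summed CPM per library for the 51 large-subunit genes, the 26 small-subunit genes and the 13 mRNAs of mitochondrial DNA, with points numbered by replicate, bars at the group mean and error bars of 1 SD (n = 3). In both subunits, on this CPM scale, the 3 TKO_96h points lie above every other point, with replicate 1 the highest.

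On the per-length TPM scale the genes were moderately expressed, with means over the 12 libraries from 7.7 to 109 TPM and a median of 22.2 TPM. The median protein-coding gene tested had 5.86 TPM and the median cytosolic ribosomal protein gene 448 TPM. Large-subunit genes had a median of 25.4 TPM and small-subunit genes 19.3 TPM. Highest were Mrpl42, a mitochondria-specific protein of the large subunit, at 109 TPM, Mrpl52 at 105 TPM, Mrps5, a small-subunit protein with a bacterial counterpart, at 102 TPM, and Mrpl15 at 79.6 TPM. Lowest were Mrpl48 at 7.7 TPM, Mrps23 at 8.42 TPM, Mrpl36 at 8.56 TPM and Mrpl14 at 8.66 TPM. Mrpl14 also had the smallest count of any member, 7 in WT_40h replicate 2. Transcripts annotated as protein coding carried 69.4 to 73.6% of the genes' TPM in each library, and retained-intron transcripts 11.9 to 16.0%. In 61 of the 78 genes the transcript of highest level was protein coding.

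Loss of the methyltransferases at 40 h of priming was the first comparison, TKO_40h against WT_40h. Genes were called where edgeR's quasi-likelihood F-test, adjusted by Benjamini-Hochberg over all 16178 genes tested, gave a p below 0.05. One gene, Mrps24, was called higher and none lower, where 1.63% of all genes were called higher and 1.48% lower. The median log2 fold change of the 78 genes was 0.08, beside 0.00 for all genes, and 48 were above 0. Unadjusted p was below 0.05 for 8 of them.

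Mrps24 encodes uS3m, the counterpart of bacterial protein S3 at the site where the mRNA enters the small subunit. Its level was 47.1, 49.0 and 32.2 CPM in WT_40h and 60.7, 67.8 and 68.3 CPM in TKO_40h, so that the groups did not overlap. The log2 fold change was 0.62 with a standard error of 0.15 (edgeR adjusted p = 0.034). The call ended with an effective length offset, where the value was 0.75 ± 0.18 (edgeR adjusted p = 0.076), and without WT_40h replicate 1 or 3 or any 1 TKO_40h replicate. In addition 16.3% of the 31-base words in its transcripts also occur in other genes, mostly Urgcp, which limits how surely its reads can be assigned. Mrps24 stayed at 55.9 to 59.6 CPM in TKO_96h, and it was the gene with the lowest fold change there, as described below.

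Priming for 48 rather than 40 h in TKO cells changed no member by the test. In TKO_48h against TKO_40h edgeR called 0 of the 78 higher and 0 lower, with 8 at an unadjusted p below 0.05, and DESeq2 also called 0. Across all genes 2.57% were called higher and 2.92% lower. The median log2 fold change was 0.00, with 40 genes above 0 and 38 below, and a range from -0.67 to 0.74. The smallest p-values belonged to Mrpl46, Mrpl20 and Mrps18b. Mrpl46, a protein of the central protuberance, was at 28.2, 28.6 and 28.2 CPM in TKO_40h and 23.9, 17.8 and 18.2 CPM in TKO_48h, a log2 difference of -0.51 ± 0.17 (SE, edgeR adjusted p = 0.094). Mrpl20 (-0.51 ± 0.18) and Mrps18b (-0.49 ± 0.18) had adjusted p-values of 0.11 and 0.12 in the same fit. For these 3 genes the 2 groups did not overlap, though none passed the threshold. They were picked by smallest p, which favours such a separation, and its share over all genes was not counted for this comparison.

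After 96 h of priming the genes were higher than after 40 h. In TKO_96h against TKO_40h, 18 of the 78 (23.1%) rose and 0 fell, where 4.94% of all genes were called higher and 7.2% lower. The median log2 fold change was 0.42, with the middle of the genes between 0.23 and 0.52, beside 0.00 for all genes. Values were above 0 for 75 of the 78 genes. In 41 genes (52.6%) every TKO_96h library lay above every TKO_40h library, and in 1, Mrps24, every one lay below. The same separation held for 15.2% of all genes upwards and 16.9% downwards.

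Without TKO_96h replicate 1 the count called higher was 3 (3.85%), Mrpl11, Mrpl12 and Mrpl37, where 3.03% of all genes were, and the median was 0.30 with 71 genes above 0. The median log2 difference of the 78 genes from their TKO_40h mean was 0.591, 0.331 and 0.255 in TKO_96h replicates 1, 2 and 3. In these libraries 73, 58 and 51 of the genes were above all 3 TKO_40h libraries, as the heat map of all genes and libraries shows. With any other 1 library of the comparison left out, 7 to 18 were called. Without TKO_40h replicate 1, 2 or 3 there were 9, 8 and 7 (11.5, 10.3 and 8.97%), where 3.14, 3.02 and 2.49% of all genes were called higher. Without TKO_96h replicate 2 or 3 there were 13 and 18 (16.7 and 23.1%), where 3.77 and 4.24% of all genes were.

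**Figure D2:**
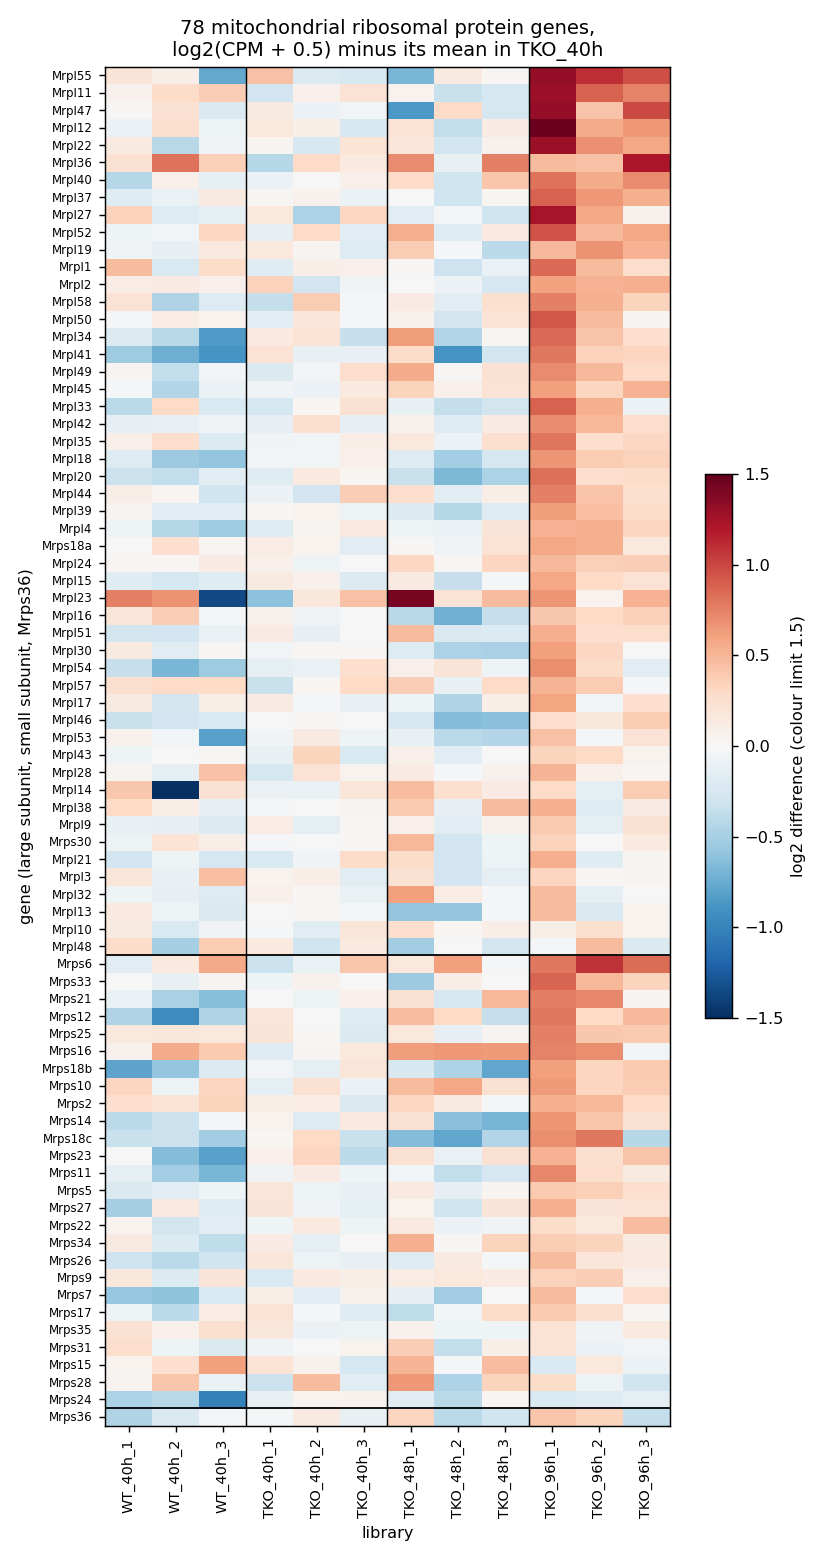
Each row is 1 of the 78 genes and each column a library, coloured by log2(CPM + 0.5) minus the gene's mean over TKO_40h, with colours limited at 1.5. Rows are ordered by the TKO_96h against TKO_40h fold change within the large subunit, the small subunit and Mrps36, and the TKO_96h columns are red for most rows, most deeply in replicate 1.

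Of the large-subunit genes 15 of 51 were called higher in TKO_96h against TKO_40h, all 51 were above 0 and their median was 0.46. Of the small-subunit genes 3 of 26 were called, 23 were above 0 and the median was 0.37. Without TKO_96h replicate 1 the counts were 3 of 51 and 0 of 26, with medians of 0.31 and 0.30. Whether the subunits differ was not tested. The ratio of large to small subunit in summed CPM was 1.96, 2.07 and 2.16 in TKO_40h and 2.42, 2.18 and 2.24 in TKO_96h. The TKO_96h libraries were above the TKO_40h libraries in this ratio, though the nearest of them were hardly apart. In the TPM sums given above the groups overlapped in this ratio, with TKO_96h replicate 2 below TKO_40h replicates 2 and 3. Genes with a bacterial counterpart (11 of 46 called, median 0.44) and mitochondria-specific ones (7 of 31, median 0.40) had like values, and without replicate 1 the counts were 2 of 46 and 1 of 31.

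Of the 5 stalk genes 2 were called, Mrpl11 and Mrpl12, with and without replicate 1. Mrpl11 encodes uL11m, at the base of the stalk where elongation factors bind. Its level was 25.6, 29.6 and 31.6 CPM in WT_40h, 19.9, 25.7 and 28.3 CPM in TKO_40h, 25.4, 19.3 and 20.2 CPM in TKO_48h and 60.1, 45.3 and 41.3 CPM in TKO_96h. Every TKO_96h library was thus above all 9 others. Against TKO_40h the log2 fold change was 0.99 ± 0.19 (SE, edgeR adjusted p = 0.0016), and without TKO_96h replicate 1 it was 0.81 ± 0.20 (edgeR adjusted p = 0.014). Only 1.0% of its 31-base words occur in other genes.

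Mrpl12 encodes bL12m, the mobile stalk protein itself. It was at 55.2, 69.4 and 56.0 CPM in WT_40h, 65.5, 62.7 and 49.6 CPM in TKO_40h, 68.7, 45.3 and 64.3 CPM in TKO_48h and 164, 86.6 and 93.0 CPM in TKO_96h. Replicate 1 was far above the other TKO_96h libraries, which in turn were above all libraries of the other groups. The log2 fold change was 0.95 ± 0.20 (SE, edgeR adjusted p = 0.0039), and 0.60 ± 0.17 without replicate 1 (edgeR adjusted p = 0.035). Mrpl10, which anchors the stalk and was named after its value was seen, was at a log2 fold change of 0.12 (edgeR adjusted p = 0.62).

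Mrpl37 encodes mL37, a mitochondria-specific protein of the large subunit. Its level was 39.3, 41.7 and 48.9 CPM in WT_40h, 45.1, 46.7 and 42.0 CPM in TKO_40h, 44.8, 36.1 and 45.6 CPM in TKO_48h and 82.4, 70.5 and 64.5 CPM in TKO_96h. The other 3 groups overlapped one another and TKO_96h overlapped none of them. The log2 fold change was 0.70 ± 0.14 (SE, edgeR adjusted p = 0.0024) and 0.60 ± 0.15 without replicate 1 (edgeR adjusted p = 0.018). None of its 31-base words occurs in another gene. Mrpl11, Mrpl12 and Mrpl37 were the 3 genes called in all 15 alternatives of this comparison.

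**Figure D3:**
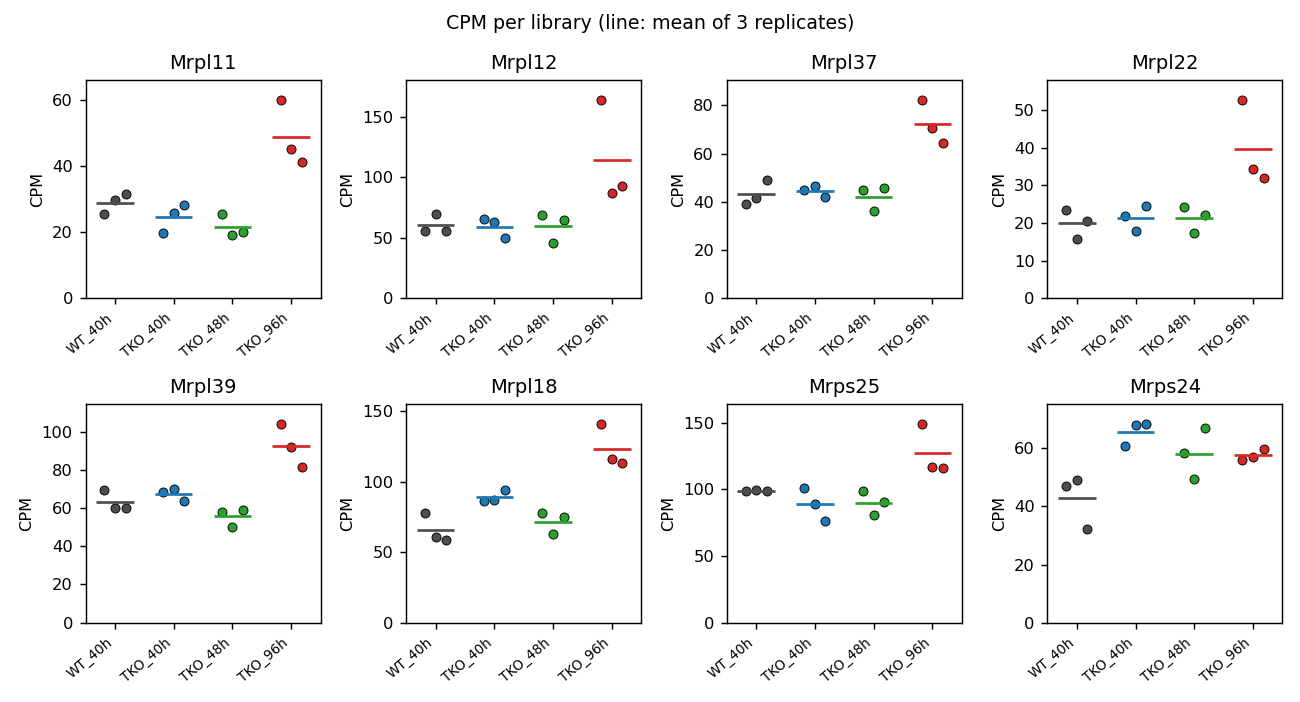
CPM in each of the 12 libraries for 8 named genes, with a line at the mean of the 3 replicates and each vertical axis starting at 0. The TKO_96h points of Mrpl11, Mrpl12 and Mrpl37 lie above all other points, and Mrps24 is lowest in WT_40h with no rise in TKO_96h.

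Around the exit tunnel 4 of 7 genes were called higher, Mrpl22, Mrpl24, Mrpl45 and Mrpl47, with a median of 0.47 over the 7. Without replicate 1 none of the 7 was called, with Mrpl24 at 0.37 and Mrpl47 at 0.75 (edgeR adjusted p = 0.14 for both). These 2 genes complete the count and lie outside the rule for naming. Mrpl22 encodes uL22m, which lines the tunnel. It was at 21.8, 17.9 and 24.6 CPM in TKO_40h and 52.7, 34.4 and 31.9 CPM in TKO_96h, with no overlap (log2 fold change 0.88 ± 0.22, edgeR adjusted p = 0.012). Without replicate 1 its adjusted p in the same test was 0.10, and 29.8% of its words occur in other genes, mostly the predicted gene Gm6997. Mrpl45 encodes mL45, which ties the ribosome to the inner membrane. It rose from 168, 164 and 194 CPM in TKO_40h to 269, 218 and 252 CPM in TKO_96h, a log2 fold change of 0.49 ± 0.12 (edgeR adjusted p = 0.012, and 0.055 without replicate 1).

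In the central protuberance, which touches the small subunit and the tRNAs, 4 of 9 genes were called higher, Mrpl18, Mrpl40, Mrpl52 and Mrpl55, and 0 of 9 without replicate 1. Mrpl40 was at 30.3, 32.3 and 34.0 CPM in TKO_40h and 57.1, 47.4 and 53.1 CPM in TKO_96h, a log2 fold change of 0.71 ± 0.18 (SE, edgeR adjusted p = 0.014, and 0.059 without replicate 1). Mrpl55 had the highest fold change of the 78, 1.15 ± 0.31, at low counts, with 11.9, 7.44 and 7.21 CPM in TKO_40h and 22.3, 19.2 and 17.4 CPM in TKO_96h (edgeR adjusted p = 0.020). Without replicate 1 it was at 1.05 ± 0.36 (edgeR adjusted p = 0.081). It lies outside the rule for naming and was chosen after its value was seen. Mrpl39, a mitochondria-specific protein elsewhere on the large subunit, was at 68.3, 69.9 and 63.7 CPM in TKO_40h and 104, 91.8 and 81.6 CPM in TKO_96h (0.46 ± 0.12, edgeR adjusted p = 0.018, and 0.10 without replicate 1). These 3 genes did not overlap between the 2 groups.

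In the small subunit Mrps2, Mrps6 and Mrps25 were called higher. Mrps2 and Mrps6 complete this count from outside the rule for naming, and without replicate 1 they were at 0.40 and 0.96 (edgeR adjusted p = 0.14 and 0.05, the second just above the threshold before rounding). Mrps25, which encodes the mitochondria-specific mS25, was at 101, 89.3 and 75.9 CPM in TKO_40h and 149, 117 and 116 CPM in TKO_96h (0.52 ± 0.13, edgeR adjusted p = 0.010, and 0.070 without replicate 1). However, 68.9% of its words also occur in other genes, mostly Nr2c2, so its counts are uncertain. The 3 genes below 0 were all of the small subunit, Mrps24 (-0.19), Mrps28 (-0.06) and Mrps15 (-0.05), and none of them was called. The last 2 were named after their values were seen. Of the 4 genes of highest TPM, Mrpl42 (0.49 ± 0.13, edgeR adjusted p = 0.021) and Mrpl52 (0.68 ± 0.19, 0.024) were called, while Mrps5 at 0.33 and Mrpl15 at 0.37 had adjusted p-values of 0.059 and 0.079. Without replicate 1 Mrpl42 was at 0.37 ± 0.14 (edgeR adjusted p = 0.12) and Mrpl52 at 0.53 ± 0.20 (0.14). Of the 4 of lowest TPM none was called, with log2 fold changes of 0.09 for Mrpl48, 0.40 for Mrps23, 0.77 for Mrpl36 and 0.20 for Mrpl14 and standard errors from 0.27 to 0.49. The called genes outside the rule for naming that are not described above are Mrpl2 (0.54 ± 0.17) and Mrpl19 (0.56 ± 0.17), both with bacterial counterparts, whose adjusted p-values without replicate 1 were 0.10 and 0.056 in edgeR.

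TKO_96h was also compared with TKO_48h, a comparison that shares the TKO_96h libraries with the one above and is therefore only set beside it. Here 25 of 78 genes (32.1%) were called higher and 0 lower, where 8.82% of all genes were called higher and 10.7% lower. The median log2 fold change was 0.37, beside 0.01 for all genes, and 67 genes were above 0. In 38 genes (48.7%) every TKO_96h library lay above every TKO_48h library and in 0 below, a separation seen in 15.6% of all genes upwards and 17.1% downwards. Without TKO_96h replicate 1, 13 were called higher (16.7%, where 5.95% of all genes were) and the median was 0.27. Without replicate 1 of both groups 17 were (21.8%, where 7.44% of all genes were), and the median was 0.38.

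By subunit 20 of 51 large-subunit and 5 of 26 small-subunit genes were called, the latter being Mrps14, Mrps18b, Mrps18c, Mrps25 and Mrps33, of which Mrps14, Mrps18c and Mrps33 only complete the count. Without replicate 1 these counts were 12 and 1. Mrpl11 stood at 1.18 ± 0.19 (SE, edgeR adjusted p = 0.00021), Mrpl12 at 0.95 ± 0.21 (0.0027) and Mrpl37 at 0.78 ± 0.14 (0.00062). They were at 1.00 ± 0.20 (edgeR adjusted p = 0.0022), 0.59 ± 0.17 (0.026) and 0.68 ± 0.15 (0.0055) without TKO_96h replicate 1. Mrpl18, whose product uL18m is a protein of the central protuberance, was at 86.7, 86.8 and 93.8 CPM in TKO_40h, 77.5, 62.6 and 74.9 CPM in TKO_48h and 141, 116 and 113 CPM in TKO_96h. Its log2 fold change over TKO_48h was 0.78 ± 0.13 (edgeR adjusted p = 0.00029), and 0.47 ± 0.13 over TKO_40h, with 0.67 ± 0.14 (0.0025) and 0.36 ± 0.14 (0.12) without replicate 1. Mrpl39 was at 58.1, 49.9 and 58.8 CPM in TKO_48h, with a log2 fold change of 0.73 ± 0.12 (edgeR adjusted p = 0.00031), and 0.64 ± 0.13 without replicate 1 (0.0027).

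Some genes were called against TKO_48h but not against TKO_40h. Mrpl20, the counterpart of bacterial L20, was at 31.5, 39.7 and 36.5 CPM in TKO_40h, 28.2, 22.2 and 25.6 CPM in TKO_48h and 64.0, 42.6 and 43.4 CPM in TKO_96h. Its log2 fold change was 0.98 ± 0.18 over TKO_48h (edgeR adjusted p = 0.00065) and 0.47 ± 0.18 over TKO_40h (0.087). Mrps18b, which encodes mS40, was at 41.9, 39.1 and 49.1, then 36.4, 31.3 and 25, then 66.6, 54.2 and 56.7 CPM in the 3 TKO groups in order of priming time, with values of 0.94 ± 0.18 (0.00085) and 0.45 ± 0.17 (0.10). Mrpl46 reached 34.1, 31.9 and 36.9 CPM in TKO_96h, with 0.79 ± 0.17 (0.0029) and 0.28 ± 0.17 (0.33). Without replicate 1 the values over TKO_48h were 0.76 ± 0.18 for Mrpl20 (edgeR adjusted p = 0.0067), 0.84 ± 0.19 for Mrps18b (0.0061) and 0.79 ± 0.19 for Mrpl46 (0.0097). For these 3 genes TKO_48h was the lowest of the TKO groups, by a difference from TKO_40h that did not pass the test, as given above. Mrpl11, Mrpl12, Mrpl16, Mrpl18, Mrpl20, Mrpl37, Mrpl46 and Mrps18b were called in all 16 alternatives of this comparison, and Mrpl16 is named only for that count.

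**Figure D4:**
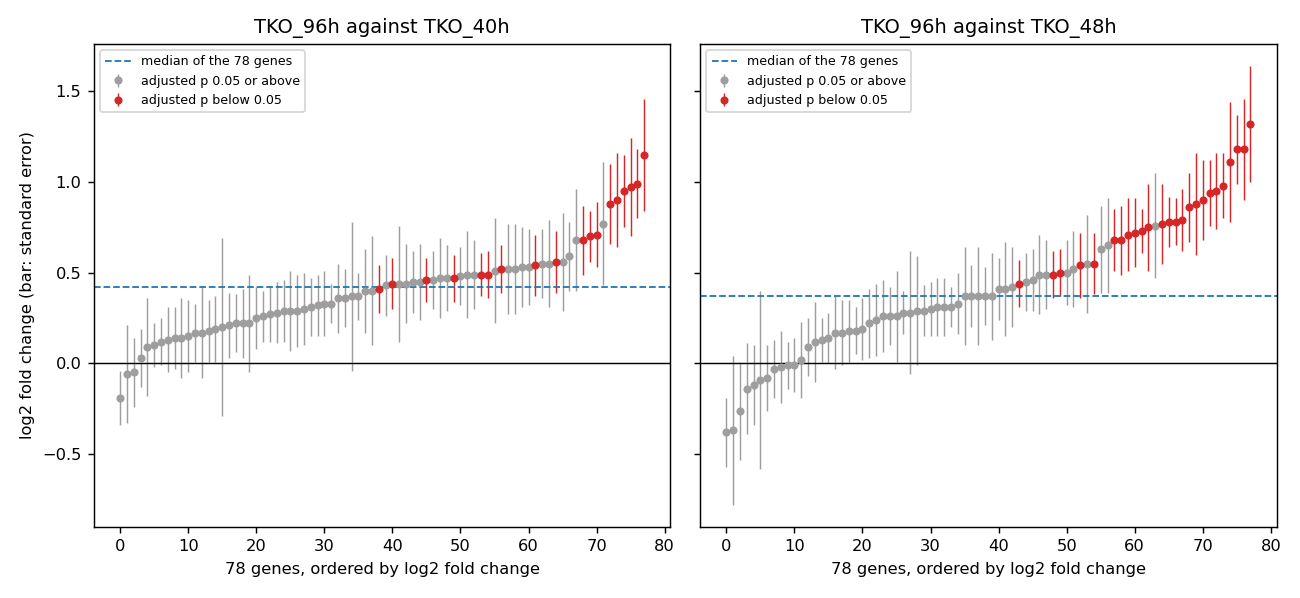
Log2 fold change with its standard error for each of the 78 genes, ordered within each panel, in TKO_96h against TKO_40h and TKO_96h against TKO_48h. The 18 and 25 genes called are red, the dashed line is the median (0.42 and 0.37), and nearly all points lie above 0.

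Gene length moved with these differences. The 78 genes are short, with a median effective length of 874 bases against 2068 bases for the protein-coding genes tested, and 68 of them fall in the shortest 3 deciles. Among other protein-coding genes the median log2 fold change of TKO_96h against TKO_40h declined from 0.24 in the shortest decile to -0.14 in the longest, as the plot by length shows. In the shortest 3 deciles as 1 set 7.97% of 4466 other genes were called higher and their median was 0.15, beside 15 of 68 members (22.1%) and a median of 0.40. Against TKO_48h the values were 12.5% and 0.13 for other genes and 23 of 68 (33.8%) and 0.39 for members. The estimated fragment length, read as transcript length minus effective length, was 176, 175 and 180 bases in TKO_96h and 180 to 186 bases in the other libraries.

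With an offset for each gene's effective length in each library, 5 members were called higher against TKO_40h, Mrpl11, Mrpl12, Mrpl22, Mrpl37 and Mrpl40, and the median was 0.38. In that fit 1.76% of all genes were called higher, beside 6.41% of the members. Against TKO_48h 10 members (12.8%) were called, beside 4.28% of all genes, and the median was 0.40. This offset corrects only for differences in a gene's own effective length between libraries. It cannot remove a trend of fold change with length across genes. The part of gene length in the counts of calls was not tested.

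**Figure D5:**
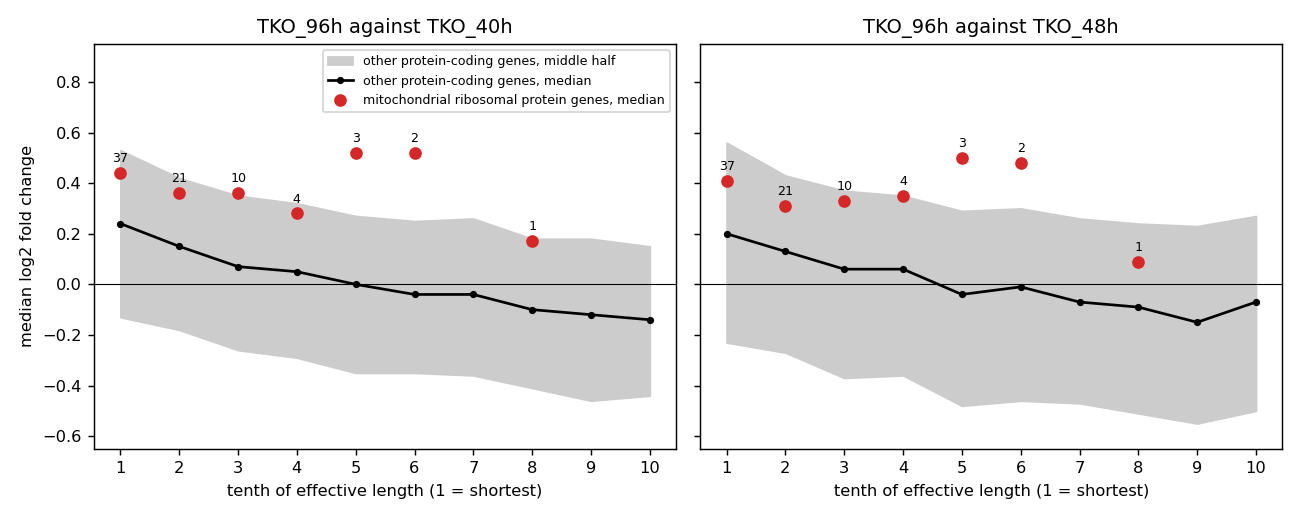
Median log2 fold change of other protein-coding genes (black line, grey band between the lower and upper quartile) and of mitochondrial ribosomal protein genes (red, with their number) by decile of effective length. The black line is above 0 in the shortest decile and below 0 in the longest in both panels, and the red points of the shortest 3 deciles lie above it, between 0.36 and 0.44 on the left.

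Other genes of mitochondrial translation were read from lists in the same fits, beside the 4.94% and 7.2% of all genes called higher and lower against TKO_40h. Against TKO_48h these shares were 8.82% and 10.7%. Without TKO_96h replicate 1 the shares called higher were 3.03% against TKO_40h and 5.95% against TKO_48h. Of 5 mitochondrial ribosome proteins under other symbols 1 rose against TKO_40h, Gadd45gip1, which encodes mL64, from 59.6, 53.2 and 51.2 CPM in TKO_40h to 93.2, 75 and 75.8 CPM in TKO_96h (0.57 ± 0.14, edgeR adjusted p = 0.011). Against TKO_48h 3 of the 5 did, Gadd45gip1, Chchd1 and Ptcd3. None of the 5 was called in either comparison without TKO_96h replicate 1, with Gadd45gip1 at 0.47 ± 0.15 against TKO_40h (edgeR adjusted p = 0.068). Of 31 genes for assembly and rRNA maturation 3 rose against TKO_40h and 0 fell, with a median of 0.34, and 5 rose against TKO_48h. They include Rbfa, a factor that matures the small subunit rRNA (0.64 ± 0.16, edgeR adjusted p = 0.012), Mtg1 (0.80 ± 0.21, 0.016) and Dhx30 (0.36 ± 0.11, 0.047). Without replicate 1 the counts were 2, Rbfa and Dhx30, and 3, and the median against TKO_40h was 0.31.

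Of 15 translation factors 2 rose against TKO_40h, Tufm, the elongation factor that brings tRNAs to the ribosome (0.56 ± 0.15, edgeR adjusted p = 0.016), and Oxa1l, which inserts the new proteins into the inner membrane (0.43 ± 0.14, 0.044), and their median was 0.37. Without replicate 1 Tufm was called (0.57 ± 0.16, edgeR adjusted p = 0.039) and Oxa1l was at 0.089 by the same test. Of 22 mitochondrial aminoacyl-tRNA synthetases and amidotransferase subunits 1 rose, Aars2 (0.99 ± 0.17, edgeR adjusted p = 0.00048), with a median of 0.21. It was 1 of 21 with the same median when Lars2, whose counts may include ribosomal RNA reads, was left out of the list. Among 24 genes of mitochondrial transcription and RNA handling 1 rose, Fastkd1 (0.58 ± 0.18, 0.036), and 1 fell, Grsf1, a protein of the RNA granules (-0.51 ± 0.12, 0.0079). In both lists the share called higher was near the 4.94% of all genes. Of 15 nuclear regulators 2 rose, Gabpa, the ETS factor named above (0.40 ± 0.11, edgeR adjusted p = 0.019), and Myc (0.68 ± 0.21, 0.041). The median of the 15 was 0.08 against TKO_40h, with 10 above 0 and 5 below. Against TKO_48h it was 0.31, with 3 called higher. Any part of these regulators in the levels of the mitochondrial ribosomal protein genes was not tested. Nrf1 was at 0.22 ± 0.11 (0.21) against TKO_40h and 0.45 ± 0.11 (0.0063) against TKO_48h. Without replicate 1 Aars2, Grsf1, Gabpa and Myc were called against TKO_40h, and Nrf1 against TKO_48h, while Fastkd1 was at 0.64 ± 0.20 (edgeR adjusted p = 0.054).

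The mRNAs that the mitochondrial ribosome translates were also higher in TKO_96h. Of 13 mRNAs of mitochondrial DNA 8 rose against TKO_40h and 11 against TKO_48h, where 4.94% and 8.82% of all genes did. The medians were 0.50 and 0.72, and 0 were lower in either. In TKO_48h against TKO_40h 3 of the 13 were called lower, where 2.92% of all genes were. There 11 were below 0 and the median was -0.27. Without TKO_96h replicate 1, 4 rose against TKO_40h and 9 against TKO_48h, where 3.03% and 5.95% of all genes did. The medians of these mRNAs were then 0.29 and 0.49. Their summed level was 13300, 12000 and 13400 CPM in TKO_40h, 11700, 10200 and 12000 CPM in TKO_48h and 19500, 15700 and 14200 CPM in TKO_96h. TKO_96h was above both TKO groups, but its replicate 3 was below WT_40h replicate 1 at 14800 CPM. mt-Cytb, the cytochrome b of complex III, went from 1400, 1210 and 1420 CPM in TKO_40h to 2350, 1920 and 1690 CPM in TKO_96h (0.56 ± 0.12, edgeR adjusted p = 0.0042), and 0.43 ± 0.11 without replicate 1 (0.023). Cytosolic ribosomal protein genes had a median of 0.07 in TKO_96h against TKO_40h, with 3 of 84 tested called higher and 0 lower, and of -0.17 without replicate 1, with 2 higher and 3 lower. Against TKO_48h their median was 0.07, with 7 higher and 0 lower. Without TKO_96h replicate 1 it was -0.18 against TKO_48h, with 4 higher and 14 lower, where 1341 of 16851 genes tested were called lower.

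Markers of cell identity moved in TKO_96h as well. Across all genes 4.94% were called higher and 7.2% lower against TKO_40h. Against TKO_40h 6 of 8 tested markers of formative and primed epiblast fell and 0 rose, and their summed level was 466 to 532 CPM in TKO_40h, 305 to 382 CPM in TKO_48h and 218 to 263 CPM in TKO_96h. Of 15 germ cell markers 4 rose and 4 fell, with sums of 2070 to 2180, 2140 to 2500 and 2530 to 2790 CPM in the same order. Prdm1 (-1.01 ± 0.23, edgeR adjusted p = 0.0067) and Dppa3 (-1.47 ± 0.20, 6.5e-05) were among those that fell, and Pou5f1 (0.60 ± 0.12, 0.0017) among those that rose. Of 10 endoderm markers 3 fell, with Afp and Apoa1 at 0 in all 3 TKO_96h libraries, and sums went from 52.6 to 56.4 CPM in TKO_40h to 19.9 to 34.6 CPM in TKO_96h. Of 7 neural markers 2 rose, Nes and Tubb3, with sums of 133 to 155 CPM and 232 to 256 CPM, and of 8 trophoblast markers 3 fell, from sums of 80.7 to 84.3 CPM to 38.5 to 53.4 CPM. Of 8 mesoderm markers 1 rose, Tbx3, and their median log2 fold change was -0.14, with 4 above 0 and 4 below. Their sums, in which abundant genes weigh most, were 70.6 to 87.8 CPM in TKO_40h and 132 to 168 CPM in TKO_96h. Of 10 markers of endothelium and blood 1 fell, Flt1. T, Tpbpa, Msgn1, Meox1, Hba-a1, Hbb-bh1 and Olig2 were at 0 in all 3 TKO_96h libraries as well. The levels of the genes at 0 are not given for the other groups, so a 0 in TKO_96h alone does not show a fall. Only 8 of 9 listed epiblast markers, 8 of 12 for trophoblast and 8 of 12 for mesoderm passed the filter on low counts. For endothelium and blood 10 of 12 passed, and for neural cells 7 of 10. With TKO_96h replicate 1 left out the markers called were 4 of 8 lower for epiblast, 3 higher and 4 lower of 15 for germ cells, 3 lower of 11 tested for endoderm, 2 higher of 7 for neural cells and 2 lower of 9 tested for trophoblast. Tbx3 was still called, and Flt1 was not, at -1.33 ± 0.45 (edgeR adjusted p = 0.081). In that fit 511 of 16851 genes tested were called higher and 840 lower. The part of these markers, and of the cells they mark, in the levels of the mitochondrial ribosomal protein genes was not tested.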

How the data were processed

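Total RNA of 12 cultures was sequenced from stranded low-input libraries (SMARTer Pico), per the labels. The submitters' processing notes name Trim Galore 0.6.2 for trimming, kallisto for quantification and GRCm38 (mm10) as the build. For kallisto's version and its transcript set the sources used here give nothing. The deposited files hold the authors' estimated counts per transcript, not scaled to depth, with TPM, which the authors' quantification scaled to effective length and depth, and effective lengths in bases. Of 119414 transcripts 116728 were matched by Ensembl ID to GENCODE M21, and 2686 were not and stayed out.

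Estimated counts were summed per gene over its transcripts and rounded. The filter was filterByExpr over the 4 groups, with a minimum count of 10 and a minimum total of 15, and 16178 genes passed, 15113 of them protein coding. edgeR 4.0.16 (R 4.3.3) fitted all 12 libraries with TMM factors and 1 mean per group, and quasi-likelihood F-tests, two-sided, were adjusted by Benjamini-Hochberg over all genes tested, called below 0.05. Standard errors were taken from F as the size of the log2 fold change over the root of F. CPM are on TMM library sizes. Levels were compared between genes only in TPM, summed per gene. Shared sequence was counted in 31-base words of GENCODE transcripts. The steps were tested on simulated counts. Python 3.11.15 with pandas 2.3.3 and matplotlib 3.10.9 made tables and plots.

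The members, the other lists and the tests were chosen with earlier results of these data known. Named were, per comparison, the members called, or the 8 of smallest adjusted p, or the 3 of smallest p where none was called, with the 4 highest and 4 lowest by TPM and up to 3 called genes of each other list. Other members named complete a count, head a promoter or word description, or were chosen after their values were seen. Promoter windows are RefSeq's, on GRCm38.p6. Reads carry no molecular identifiers. The p-values rest on the spread between the replicate libraries.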

Additional observations from a re-analysis of the deposited data

How the results depend on the processing

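Other settings were DESeq2 1.42.0, RLE size factors, a robust fit, an unfiltered table, a fit of the compared groups only, a replicate block, an offset for effective length, protein-coding genes alone, pseudogene counts added to members and the omission of each library. A further setting without both TKO_48h replicate 1 and TKO_96h replicate 1, the other lists without TKO_96h replicate 1 and the synthetase list without Lars2 were added after seeing the data. No called value changed direction in these, and the median of members in TKO_48h against TKO_40h, 0.00, ran from -0.05 to 0.08. Replicate numbers do not pair the libraries: correlations of same-numbered deviations ran from -0.06 to 0.051 over 18 pairs. With a replicate block the members called higher were 2 in TKO_40h against WT_40h, 0 in TKO_48h against TKO_40h, 18 in TKO_96h against TKO_40h and 28 in TKO_96h against TKO_48h, and the genes called were 520, 903, 2024 and 3175.

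The effective length offset gave 0, 0, 5 and 10 members called higher in these 4 comparisons and 75, 203, 829 and 1639 genes called, where the main counts were 502, 888, 1965 and 3157. For TKO_40h against WT_40h, DESeq2 called 785 genes, no filter 787 genes and 2 members, and only the groups compared 1278 genes and 2 members. Leaving out 1 library at a time gave 181 to 217 genes and 0 to 1 members called in TKO_40h against WT_40h, with a median log2 fold change of members from 0.05 to 0.13. It gave 324 to 1106 genes in TKO_48h against TKO_40h. In TKO_96h against TKO_40h it gave 1210 to 1676 genes and 3 to 18 members, the lowest without TKO_96h replicate 1. In TKO_96h against TKO_48h it gave 2344 to 2990 genes and 13 to 27 members, the lowest without TKO_96h replicate 1. The cause of these shifts was not tested. Among the members named per comparison, 286 of the values under an alternative kept their side of the threshold and 22 lost it, all in the same direction as before. This tally favours stability, since these members were called or picked by smallest p. The 3 of TKO_48h against TKO_40h kept their side by staying uncalled. Of all 18 members called in TKO_96h against TKO_40h, 3 were kept without TKO_96h replicate 1 and 5 with the effective length offset. With 3 libraries a group and member counts down to 7, small changes of the rarest members are not detectable at this depth.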
